A study of Mus musculus with 6 samples.

Results

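The 10 genes described here, of 23420 in the count table, are regulators and products of cartilage and tendon. They were taken by symbol as a list fixed by name (Sox9, Sox5, Sox6, Acan, Comp, Matn2, Cilp, Scx, Mkx and Tnmd). The list was chosen with earlier results of these data known. All 10 had at least 1 read in the 6 libraries, and 6 of the 10 (Sox9, Sox5, Sox6, Matn2, Scx and Mkx) passed the filter on low counts and were tested. Mesenchymal stromal cells (MSCs) are adherent cells of the bone marrow that can be driven in culture to form bone, fat or cartilage. Sox9, a transcription factor with an HMG box, opens the chondrocyte programme, and the SoxD factors Sox5 and Sox6 act with it on the genes of cartilage matrix such as Acan, which encodes aggrecan. In tendon cells, the bHLH factor scleraxis (Scx) and the homeobox factor Mohawk (Mkx) act upstream of matrix genes and of Tnmd, which encodes tenomodulin.

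The study compared MSCs that carry a thymoproteasome (TPr) construct with control cells, to learn how the TPr alters antigen handling by MSCs. Both groups were MSCs from the bone marrow of young female C57BL/6 mice, grown in AMEM with serum and transduced with the AP2 retrovirus, which also encodes eGFP. Ctl MSC received the empty backbone and MSC-TPr the backbone with β1i, β2i and β5t, and each group has 3 libraries of polyadenylated RNA from a stranded kit. The labels do not say that the libraries came from separate cultures or mice, so p-values measure the spread between these libraries, which may be technical.

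Gene counts summed to 16158756 to 22158887 reads per library, a depth at which 3 reads equal 0.139 to 0.181 CPM, the read count relative to a TMM-scaled library size. This limit covers counting error only. Libraries stood apart from their labels: the first principal component placed Ctl MSC 1 (-39.7) with MSC-TPr 2 (-44.9) and 3 (-43.7), and MSC-TPr 1 (38.5) with Ctl MSC 2 (45.7) and 3 (44.1). A score of cell division, the average log2(CPM + 0.5) over 20 genes, split the same way, with 6.75, 3.76 and 3.75 in Ctl MSC 1, 2 and 3 against 3.75, 6.71 and 6.65 in MSC-TPr 1, 2 and 3. Of the transduced genes Psmb11, which encodes β5t, had 2, 4 and 2 reads in Ctl MSC 1, 2 and 3 against 4, 6 and 1 in MSC-TPr 1, 2 and 3, and Psmb9 (0.801 to 3.38 against 0.554 to 1.24 CPM) and Psmb10 (8.38 to 27.8 against 8.97 to 17.3 CPM) overlapped as well. The transduced genes thus did not separate the labels, so each direction below is one between library labels. The study itself lists Psmb10 among the genes raised in MSC-TPr and gives a Western blot of the subunits. The tested members and the lists are described with all 6 libraries and with the 4 numbered 2 and 3. Ctl MSC 1 and MSC-TPr 1, left out of the 4, are the libraries that lay with the other label above. Separation of the labels in the 4 thus follows in part from that choice, and the p-values do not allow for it. By chi-square per gene between counts, Ctl MSC 2 and 3 were much closer to each other (4.97) than MSC-TPr 2 was to MSC-TPr 3 (52.32). Pairs of one label with a library numbered 1 lay at 160.02 to 200.33. The p-values over the 4 libraries thus rest in part on a narrow spread between Ctl MSC 2 and 3, which may be technical. Within those 4, label and cell division score split the libraries alike and cannot be told apart. Of 12 MSC markers all had a read. Their summed level ranged from 4589.7 to 9941.1 CPM in Ctl MSC and from 3132.2 to 15557.3 CPM in MSC-TPr. A large part of the sum was Col1a1 and Col1a2, with 3250 and 2992 CPM in Ctl MSC 1. These collagen genes had 354 and 1101 CPM in MSC-TPr 1 and 6916 and 5602 CPM in MSC-TPr 3. Thy1, which encodes CD90, had 1 read in 1 library and 0 in the others. By flow cytometry, the study reports CD90 protein on Ctl MSC and an unaltered mesenchymal phenotype in MSC-TPr. Leukocyte markers summed to 11.2 to 14.7 CPM in Ctl MSC and 13 to 17.6 CPM in MSC-TPr, with reads on 8 of 10 and none on Emr1 or Laptm5. Endothelial markers (6 of 7 with a read, Tie1 at 0) summed to 1.3 to 6.2 and 2.4 to 24.7 CPM, and skeletal muscle markers (7 of 8, Pax7 at 0) to 1.3 to 3.0 and 0.6 to 1.3 CPM. Of these Myf5 had 36, 11 and 12 reads in Ctl MSC 1, 2 and 3 and 0 in each MSC-TPr library. Groups lay apart in this direction in 12.1% of all genes tested. The other muscle markers with a read were under 1 CPM in every library. Osteoblast markers (8 of 9, Ibsp at 0) summed to 482.6 to 1376.6 and 655.7 to 1770.0 CPM, and adipocyte markers (8 of 8) to 235.2 to 331.3 and 265.5 to 312.0 CPM. Sp7, Bglap, Bglap2 and Dmp1 of the osteoblast list were under 1 CPM in every library. So were Adipoq, Plin1, Cfd and Cd36 of the adipocyte list. The part of these cell types in the values below was not tested. In bulk RNA, fewer cells with a transcript and less transcript per cell cannot be told apart.

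The results turn on Sox5 and Sox6, close relatives that could share reads, so a stretch of their HMG box is shown first beside that of Sox9. It is 90 bases long and starts at the same conserved codon in each gene, in GENCODE M21 transcripts on mm10 (GRCm38), printed 5′ to 3′ on the strand of the gene. Capitals mark bases that differ from Sox5. The Sox5 stretch lies in exon 13 of a Sox5 transcript at chr6:143841184-143841273 (minus strand), that of Sox6 in exon 14 of a Sox6 transcript at chr7:115489673-115489762 (minus strand) and that of Sox9 in exon 1 of a Sox9 transcript at chr11:112782903-112782992 (plus strand), all within coding sequence.
Sox5: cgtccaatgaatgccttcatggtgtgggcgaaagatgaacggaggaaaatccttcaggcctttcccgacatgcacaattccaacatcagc
Sox6: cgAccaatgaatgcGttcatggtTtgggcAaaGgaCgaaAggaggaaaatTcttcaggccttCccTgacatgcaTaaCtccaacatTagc
Sox9: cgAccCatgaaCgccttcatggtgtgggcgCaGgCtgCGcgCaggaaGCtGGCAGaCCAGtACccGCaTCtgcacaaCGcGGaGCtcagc
Sox6 differed from Sox5 at 13 of the 90 bases (85.6% identity) and Sox9 at 32 (64.4% identity). Over all annotated transcripts the longest run shared by Sox5 and Sox6 was 23 bases, and no window of 50 bases was shared by any pair of the 10 genes. The reads were paired-end.

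The promoters of the products that were hardly read are shown next, as the 250 bases before the RefSeq start on GRCm38.p6, for the 3 of these genes with an entry. Capitals mark matches to the E-box CANNTG, the motif class bound by bHLH factors such as Scx.
Acan, chr7:79052976-79053225, plus strand: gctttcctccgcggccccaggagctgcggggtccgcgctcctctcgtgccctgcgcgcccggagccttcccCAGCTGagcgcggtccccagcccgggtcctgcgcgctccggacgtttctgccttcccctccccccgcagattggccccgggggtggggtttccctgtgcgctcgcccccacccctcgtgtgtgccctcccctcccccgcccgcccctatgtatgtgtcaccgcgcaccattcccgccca
Cilp, chr9:65264930-65265179, plus strand: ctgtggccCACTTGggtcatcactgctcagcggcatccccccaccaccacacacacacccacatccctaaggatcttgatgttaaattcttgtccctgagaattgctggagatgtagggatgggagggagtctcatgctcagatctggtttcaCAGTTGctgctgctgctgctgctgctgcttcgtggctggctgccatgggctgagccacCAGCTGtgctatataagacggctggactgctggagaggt
Tnmd, chrX:133850758-133851007, plus strand: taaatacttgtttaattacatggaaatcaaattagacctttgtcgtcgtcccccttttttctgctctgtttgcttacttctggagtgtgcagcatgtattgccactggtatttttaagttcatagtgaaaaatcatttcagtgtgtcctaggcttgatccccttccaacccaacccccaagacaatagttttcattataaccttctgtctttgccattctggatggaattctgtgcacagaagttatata
The Acan window held 1 E-box, the Cilp window 3 and the Tnmd window 0, and none held the SOX motif AACAAT or its reverse ATTGTT. Of 32851 promoter windows of this length, 66.2% held an E-box and 9.4% the SOX motif, both strands searched, with overlapping matches counted. Acan lies in a GC-rich window (74.4%) and Tnmd in one of 38.4% GC. Of the 10 genes 5 had a promoter entry, Sox5, Sox6, Acan, Cilp and Tnmd.

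The 10 genes spanned a wide range of levels, and Matn2 and then Sox9 lay above the other 8 in every library. Levels are compared between genes as CPM per kilobase of the longest coding transcript. Matn2 was highest, with a mean of 36.9 over the 6 libraries (25.9 to 50.1), followed by Sox9 with 9.94 (7.83 to 13.9), and these ranges did not overlap. Scx had a mean of 4.66 (1.18 to 10.3), Mkx 1.90 (0.710 to 3.52), Sox5 1.06 (0.305 to 2.94) and Sox6 0.191 (0.0478 to 0.376) CPM per kilobase, and each of these ranges overlapped the next, as the range of Scx did that of Sox9. Comp (0.0510), Cilp (0.0230), Tnmd (0.0220) and Acan (0.00708) followed with overlapping ranges. By mean level the 5 regulators lay between Matn2 and the other 4 products, although in MSC-TPr 2 the level of Comp (0.0979) was above that of Sox6 (0.0478).

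**Figure D1:**
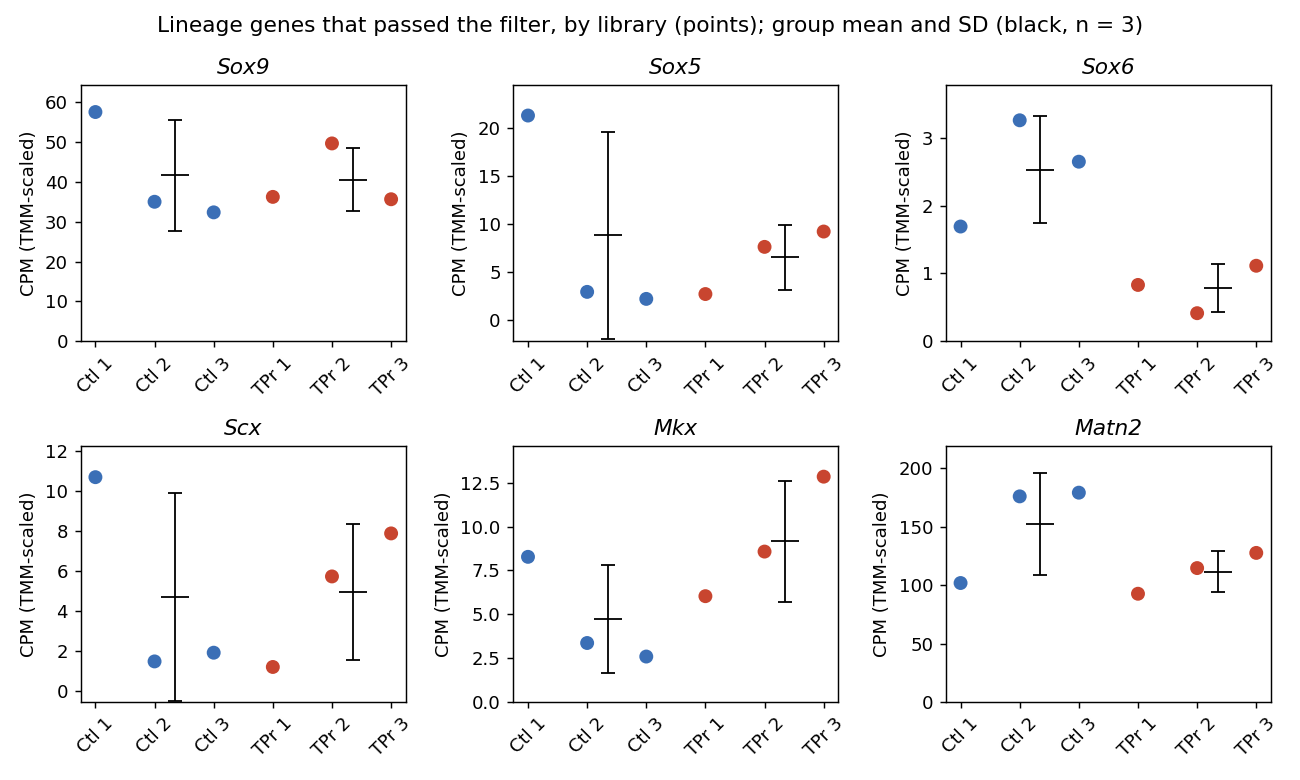
CPM of the 6 tested genes in each library (points; blue Ctl MSC, red MSC-TPr), with the mean and SD of each group (black bars, n = 3). Sox6 alone shows no overlap between the groups, from 1.69 to 3.26 CPM in Ctl MSC and from 0.414 to 1.11 CPM in MSC-TPr. Of all genes tested, 12.1% had groups that lay apart in this direction.

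Sox9, on chromosome 11 of mm10 from 112782224 to 112787760 (plus strand), was the steadiest of the regulators. It measured 57.6, 35 and 32.4 CPM in Ctl MSC 1, 2 and 3 against 36.3, 49.7 and 35.7 CPM in MSC-TPr 1, 2 and 3. Ctl MSC 1 and MSC-TPr 2 were the highest libraries, and the groups overlapped. Its means were 41.7 ± 13.8 CPM for Ctl MSC against 40.5 ± 7.93 CPM in MSC-TPr (SD, n = 3 each), which differ by -0.04 on the log2 scale (SE 0.274, edgeR adjusted p = 0.962). Over the 4 libraries numbered 2 and 3 it was 0.34 (SE 0.180, edgeR adjusted p = 0.167), so a difference larger than the spread between libraries was not detected in either fit. The highest library exceeded the lowest by 1.78 times, the narrowest span of the 6 tested genes.

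Sox6, a SoxD factor on chromosome 7 from 115470872 to 116038796 (minus strand), was lower in all 3 libraries labelled MSC-TPr than in any of the 3 labelled Ctl MSC. It measured 1.69, 3.26 and 2.65 CPM in Ctl MSC 1, 2 and 3 against 0.830, 0.414 and 1.11 CPM in MSC-TPr 1, 2 and 3, which rest on 28, 61 and 48 reads and on 15, 7 and 24 reads. The means were 2.53 ± 0.789 and 0.786 ± 0.352 CPM (SD, n = 3 each). The log2 fold change of -1.67 (SE 0.464) did not pass the threshold over all genes (edgeR unadjusted p = 0.0098, adjusted p = 0.194). Over the 4 libraries it was -1.89 (SE 0.426, edgeR adjusted p = 0.015), and DESeq2 over all 6 gave -1.66 with an adjusted p of 0.041. With any single library removed the value stayed below 0, from -2.0 to -1.37, with edgeR adjusted p from 0.121 to 0.623. Ctl MSC 1, which has the level of cell division genes of MSC-TPr 2 and 3, lay between the other Ctl MSC libraries and MSC-TPr.

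Sox5, the other SoxD factor of the list, on chromosome 6 from 143828425 to 144781977 (minus strand), did not move with the labels. Ctl MSC 1, 2 and 3 had 21.3, 2.94 and 2.21 CPM and MSC-TPr 1, 2 and 3 had 2.71, 7.63 and 9.23 CPM. Ctl MSC 1 was the highest of all 6 libraries and MSC-TPr 2 and 3 came next, the 3 libraries with high cell division genes, while MSC-TPr 1 lay among Ctl MSC 2 and 3. The group means of 8.82 ± 10.8 and 6.52 ± 3.40 CPM (SD, n = 3 each) differed by -0.43 on the log2 scale (SE 0.929, edgeR adjusted p = 0.863). Without the libraries numbered 1 the sign turned, to 1.71 (SE 0.233, edgeR adjusted p = 0.0027), and without Ctl MSC 1 alone it was 1.34 (edgeR adjusted p = 0.223). The part of cell division in this value was not tested. Exons of the antisense gene Sox5os1 cover 9.3% of the exonic bases of Sox5, and the sources used here do not say whether the counting used the strand.

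The balance between the SoxD factors differed widely among the libraries. Per kilobase of the longest coding transcript, the level of Sox5 was 15.1, 1.08 and 0.997 times that of Sox6 in Ctl MSC 1, 2 and 3 and 3.91, 22.1 and 9.92 times in MSC-TPr 1, 2 and 3. Sox5 and Sox6 were thus near parity in Ctl MSC 2 and 3 alone, and the groups overlapped through Ctl MSC 1. Sox9 exceeded Sox6 in every library, by 71.3, 22.5 and 25.6 times in Ctl MSC and by 91.5, 252 and 67.2 times in MSC-TPr, again with overlap. Sox13, the third SoxD gene and not of the 10, measured 1.51, 1.55 and 1.21 CPM in Ctl MSC 1, 2 and 3 against 3.38, 5.26 and 5.10 CPM in MSC-TPr. All 3 libraries labelled MSC-TPr were above the other 3, as in 10.6% of all genes tested. The difference of 1.68 on the log2 scale (SE 0.304) missed the threshold (edgeR adjusted p = 0.088). It passed over the 4 libraries (1.90, edgeR adjusted p = 0.0021) and with DESeq2 over 6 (1.70, adjusted p = 0.00036). Sox13 was named for the size of its log2 fold change among the relatives of the 10.

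**Figure D2:**
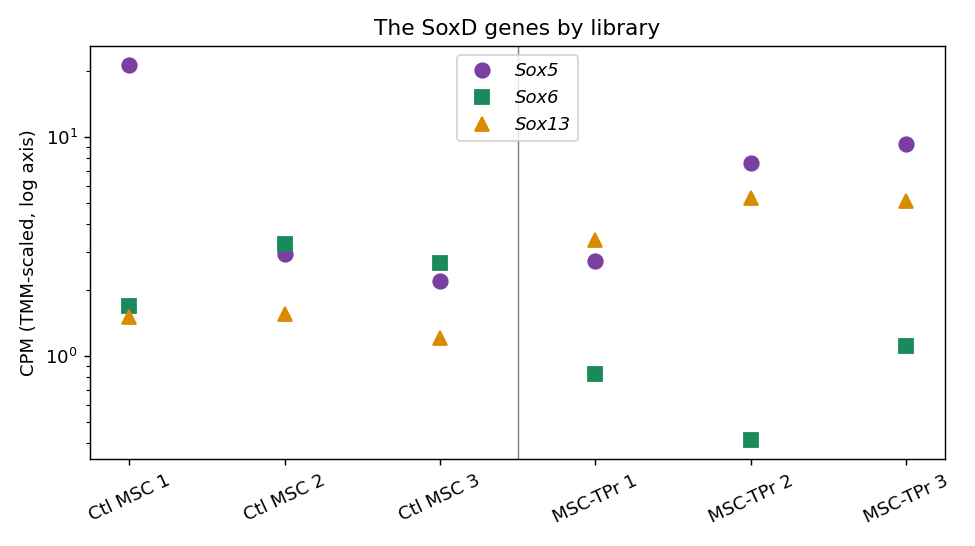
CPM of the SoxD genes Sox5, Sox6 and Sox13 in each library on a log axis, with Ctl MSC to the left of the line and MSC-TPr to the right. Sox6 is lower and Sox13 higher in every MSC-TPr library, and Sox5 is highest in Ctl MSC 1 at 21.3 CPM. Groups without overlap were seen in 12.1% (lower) and 10.6% (higher) of all genes tested.

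Scx, on chromosome 15 from 76457452 to 76459458 (plus strand), was highest in the same 3 libraries as Sox5. It had 10.7, 1.5 and 1.93 CPM in Ctl MSC 1, 2 and 3 against 1.22, 5.74 and 7.89 CPM in MSC-TPr 1, 2 and 3. These were Ctl MSC 1 and MSC-TPr 2 and 3, the lowest was MSC-TPr 1, and the groups overlapped. Means of 4.71 ± 5.19 and 4.95 ± 3.40 CPM (SD, n = 3 each) differed by 0.08 on the log2 scale (SE 0.933, edgeR adjusted p = 0.978). The 4 libraries numbered 2 and 3 gave 2.0 (SE 0.271, edgeR adjusted p = 0.0026). Without Ctl MSC 1 alone it was 1.53 (edgeR adjusted p = 0.278), and without MSC-TPr 3 it was -0.42 (edgeR adjusted p = 0.929).

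Scx lies wholly within the span of Bop1, a gene of ribosome biogenesis on the opposite strand, with no shared exon bases. Bop1 measured 125, 64.3 and 73.0 CPM in Ctl MSC 1, 2 and 3 against 81.0, 161 and 129 CPM in MSC-TPr 1, 2 and 3, so its 3 highest libraries were those of Scx. From the lowest to the highest library Scx spanned 8.78 times and Bop1 2.51 times. The part of Bop1 reads in the Scx counts was not tested.

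Mkx, on chromosome 18 from 6934518 to 7004780 (minus strand), reached 8.28, 3.36 and 2.59 CPM in Ctl MSC 1, 2 and 3 against 6.03, 8.58 and 12.8 CPM in MSC-TPr 1, 2 and 3. MSC-TPr 3 was the highest library, but Ctl MSC 1 lay above MSC-TPr 1, so the groups overlapped. The means were 4.74 ± 3.08 and 9.15 ± 3.44 CPM (SD, n = 3 each), which differ by 0.95 on the log2 scale (SE 0.513, edgeR adjusted p = 0.440). Over the 4 libraries the log2 fold change was 1.85 (SE 0.273, edgeR adjusted p = 0.0035), and removal of any 1 library gave values from 0.63 to 1.62. An annotated transcript of another gene on the same strand covers 4.9% of its exonic bases, so reads there could belong to either. The level of Mkx per kilobase was below that of Scx in 5 libraries, at 0.219 to 0.638 times, and above it in MSC-TPr 1, at 1.40 times.

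Matn2, which encodes the adaptor protein matrilin-2 of many connective tissues, was the most abundant of the 10. On chromosome 15 from 34306677 to 34436273 (plus strand), it measured 102, 176 and 179 CPM in Ctl MSC 1, 2 and 3 against 92.6, 115 and 128 CPM in MSC-TPr 1, 2 and 3. Ctl MSC 2 and 3 were the highest libraries, while Ctl MSC 1 lay within the range of MSC-TPr. Group means of 152 ± 43.7 and 112 ± 17.7 CPM (SD, n = 3 each) differed by -0.45 on the log2 scale (SE 0.257, edgeR adjusted p = 0.469). Over the 4 libraries it was -0.55 (SE 0.116, edgeR adjusted p = 0.012). With each library left out in turn the log2 fold change ran from -0.67 to -0.32 and did not pass the threshold.

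The other products were near the limit of detection. Acan had 0, 0 and 1 reads in Ctl MSC 1, 2 and 3 and 0, 2 and 3 reads in MSC-TPr 1, 2 and 3. Comp, which encodes the pentameric cartilage oligomeric matrix protein, had 3, 1 and 1 reads and then 3, 4 and 1 reads. Cilp, for cartilage intermediate layer protein, had 2, 0 and 0 reads and then 1, 2 and 6 reads. Tnmd had 1, 0 and 0 reads and then 0, 2 and 0 reads. The highest single value of these 4 genes was 0.278 CPM (Cilp in MSC-TPr 3), a read count of 0 allows up to 3 reads, and no difference between the groups was detectable at this depth. They lie on chromosome 7 from 79053483 to 79115099 (Acan), chromosome 8 from 70373558 to 70382066 (Comp), chromosome 9 from 65265180 to 65280605 (Cilp) and chromosome X from 133850980 to 133865577 (Tnmd), all on the plus strand.

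**Figure D3:**
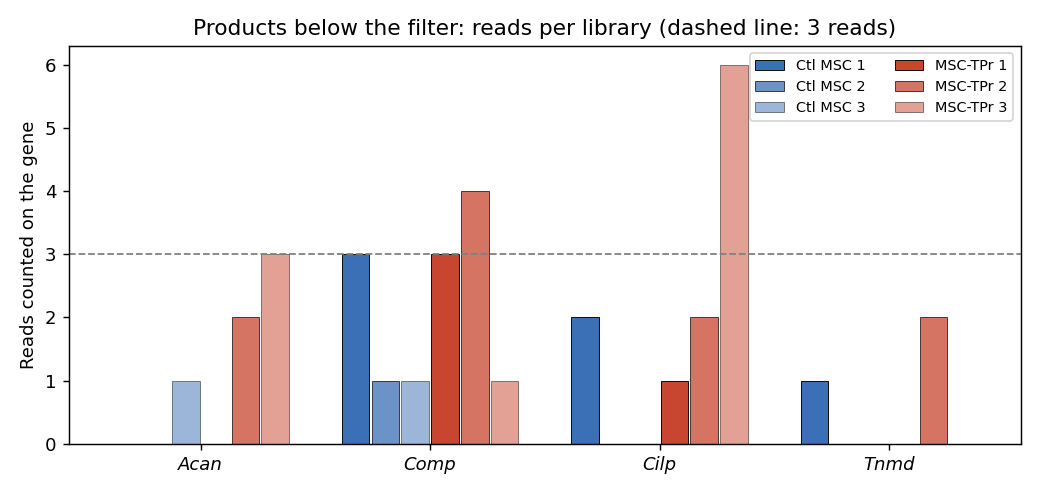
Reads counted on Acan, Comp, Cilp and Tnmd in each of the 6 libraries, with a dashed line at 3 reads. Only Comp in MSC-TPr 2 (4 reads) and Cilp in MSC-TPr 3 (6 reads) lie above the line.

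Counted together, 0 of the 6 tested genes were called over all 6 libraries, where a call needs an edgeR p under 0.05 after adjustment over all genes together with a size of 0.5 or more on the log2 scale. Among all 11974 genes tested 0.426% were called. Sox6 was the 1 gene of the 6 with an unadjusted p under 0.05, and DESeq2 called it as well, 1 of 6 against 5.31% of all genes with an adjusted p. No overlap between the groups was seen in 1 of 6 genes in the lower direction (Sox6), where all genes gave 12.1%, and in 0 of 6 in the higher direction, where all genes gave 10.6%. The median log2 fold change of the 6 genes was -0.24, beside 0.01 over all genes tested.

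Over the 4 libraries numbered 2 and 3, 5 of the 6 genes were called, Sox5, Scx and Mkx as higher and Sox6 and Matn2 as lower. Of all 12122 genes tested 40.0% were called, 20.6% as higher and 19.4% as lower. The cell division score of these libraries was 3.76 and 3.75 in Ctl MSC against 6.71 and 6.65 in MSC-TPr. Label and level of cell division genes thus cannot be told apart in this fit. Its calls also rest in part on the narrow spread between Ctl MSC 2 and 3. Of the 5 called genes, Sox6 alone had groups that did not overlap once the libraries numbered 1 were included. Over all 6 libraries, 12.1% of all genes tested lay apart in the lower direction. Sox5 turned sign, the log2 fold change of Scx went from 2.0 to 0.08 and that of Mkx from 1.85 to 0.95.

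**Figure D4:**
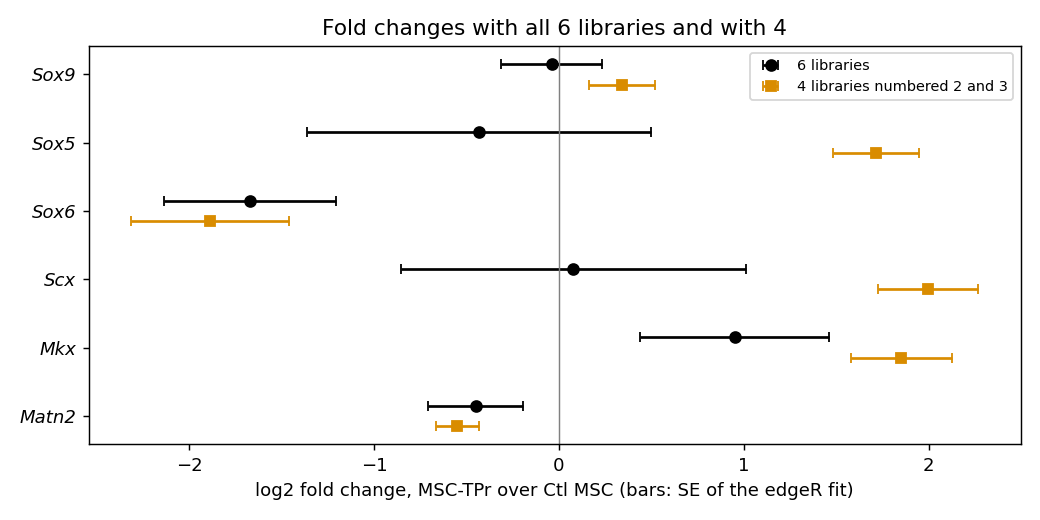
Log2 fold change of MSC-TPr over Ctl MSC for the 6 tested genes, with the SE of the edgeR fit, over all 6 libraries (black) and over the 4 numbered 2 and 3 (orange). Sox6 stays below 0 in both (-1.67 and -1.89), while Sox5 moves from -0.43 to 1.71 and Scx from 0.08 to 2.0.

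Wider lists of cartilage and tendon genes were set beside the 10. Over all genes tested with 6 libraries, edgeR called 0.426%. Of 18 chondrogenic signals and factors, 11 were tested and 1 was called lower, Barx1, a homeobox factor of joint and other mesenchyme. It measured 22.1, 19.3 and 18.0 CPM in Ctl MSC 1, 2 and 3 against 3.88, 4.55 and 5.71 CPM in MSC-TPr 1, 2 and 3, and fell by 2.07 on the log2 scale (SE 0.230, edgeR adjusted p = 0.029). Of 10 tendon factors and signals, 8 were tested and 1 was called lower, Eya1, a co-activator of homeobox factors. Eya1 had 19.2, 16.7 and 15.7 CPM in Ctl MSC 1, 2 and 3 against 2.44, 2.13 and 3.71 CPM in MSC-TPr, and fell by 2.63 (SE 0.282, edgeR adjusted p = 0.026). Of all genes tested 12.1% had groups that lay apart in the lower direction. For Barx1 and Eya1 the groups lay apart, unlike Sox5 and Scx, with Ctl MSC 1 beside Ctl MSC 2 and 3. The adjusted p of both stayed under 0.05 without Ctl MSC 1 and rose above it without any other single library (edgeR, 0.053 to 0.204 for Barx1 and 0.062 to 0.176 for Eya1), with the direction kept. The 4 libraries gave log2 fold changes of -1.85 for Barx1 (edgeR adjusted p = 0.00084) and of -2.44 for Eya1 (edgeR adjusted p = 0.0013).

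The other genes of both lists did not pass the edgeR test. DESeq2 called 2 genes in each, Barx1 and Runx3 in the first and Eya1 and Gdf7 in the second. It called 5.31% of all genes with an adjusted p. In the chondrogenic list 4 of 11 log2 fold changes were positive and 7 negative, with a median of -0.26, and over the 4 libraries 2 were called higher and 3 lower, with a median of 0.0. Its genes with the highest mean CPM were Wwp2, a ubiquitin ligase (89.9 ± 6.40 and 109 ± 13.5 CPM), and Foxc1, a forkhead factor (112 ± 36.7 and 60.9 ± 29.4 CPM, SD, n = 3 each). The growth factor receptor gene Fgfr3 had 0.974 ± 0.129 and 2.1 ± 0.217 CPM, without overlap, as in 10.6% of all genes tested in the higher direction. Its log2 fold change was 1.1 (edgeR adjusted p = 0.185), and 1.07 over the 4 libraries (edgeR adjusted p = 0.028). In the tendon factor list 4 were positive and 4 negative, with a median of -0.02. Over the 4 libraries 3 of the 8 were called higher and 2 lower, with a median of 0.42. Beside both lists, the 4 libraries called 20.6% of all genes as higher and 19.4% as lower. Egr1, an immediate early factor, had 159 ± 80.8 and 113 ± 50.6 CPM, its relative Egr2 1.05 ± 0.716 and 3.97 ± 2.40 CPM, and the ligand gene Tgfb2 26.9 ± 11.6 and 32.7 ± 29.4 CPM.

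All 8 cartilage collagen genes had a read, and of the 6 tested 3 were positive and 3 negative, with a median log2 fold change of -0.07, 0 called by edgeR or DESeq2 and 0 with an unadjusted edgeR p under 0.05. With the 4 libraries 2 of the 6 were called higher and 2 lower, with a median of 0.38. Over all genes this fit called 20.6% as higher and 19.4% as lower. Col2a1, the main fibril collagen of cartilage, had 9.91 CPM in Ctl MSC 1 and 0.0554 to 2.23 CPM in the other libraries. Col11a1 had 44.5 ± 32.7 and 45.9 ± 40.0 CPM, Col11a2 7.43 ± 5.52 and 10.0 ± 11.3 CPM, and Col10a1, of hypertrophic cartilage, 5.45 ± 2.67 and 3.39 ± 1.85 CPM (SD, n = 3 each). Of 13 other cartilage matrix genes 9 had a read and 4 were tested, with 2 positive, 2 negative, a median of 0.71, 0 called by edgeR or DESeq2 and 1 (Matn3) with an unadjusted edgeR p under 0.05. The fit of 4 libraries called 2 of the 4 higher (Matn3, 4.13, edgeR adjusted p = 0.00085, and Fmod, 4.07, edgeR adjusted p = 0.017) and 1 lower (Prg4, -0.95, edgeR adjusted p = 0.011), with a median of 2.68. Prg4, for lubricin, had 6.20 ± 3.86 and 3.67 ± 1.21 CPM, Prelp 4.72 ± 4.34 and 4.61 ± 3.35 CPM, Matn3 0.312 ± 0.307 and 1.78 ± 1.21 CPM and Fmod, for fibromodulin, 0.475 ± 0.635 and 1.26 ± 1.55 CPM. Matn1, Lect1, Ucma and Epyc had 0 reads in every library.

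Of 16 tendon matrix genes and markers, 12 were tested, 8 positive and 4 negative, with a median log2 fold change of 0.51, 0 called by edgeR or DESeq2 and 0 with an unadjusted edgeR p under 0.05. Col1a1, the main collagen of tendon and bone, had 3250, 660 and 639 CPM in Ctl MSC 1, 2 and 3 against 354, 3052 and 6916 CPM in MSC-TPr 1, 2 and 3. Ctl MSC 1 and MSC-TPr 2 and 3 were its highest libraries, as for Scx, Mkx and Sox5. Col1a2 had 2079 ± 791 and 3172 ± 2271 CPM, Col3a1 353 ± 442 and 862 ± 793 CPM, and Fibin 19.8 ± 13.4 and 7.12 ± 1.36 CPM (SD, n = 3 each). Over the 4 libraries 9 of the 12 were called higher and 2 lower, and the median was 1.60, beside a median of 0.0 and the shares of 20.6% and 19.4% over all genes.

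**Figure D5:**
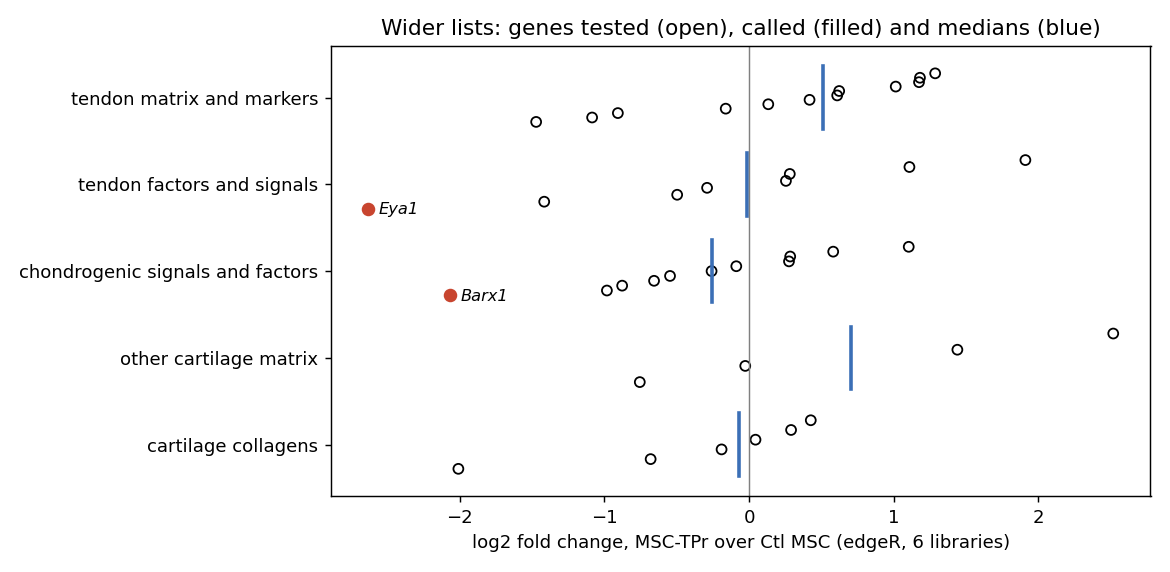
Log2 fold changes (MSC-TPr over Ctl MSC, edgeR, 6 libraries) of the tested genes in 5 lists of cartilage and tendon genes, with called genes filled in red and the median of each list in blue. Barx1 (-2.07) and Eya1 (-2.63) are the called genes, and the medians run from -0.26 to 0.71.

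Relatives of the 10 by sequence were examined last. Of 18 listed, 14 had a read and 8 were tested, 6 positive and 2 negative, with a median of 0.54, 0 called by edgeR, 1 called by DESeq2 (Sox13) and 2 with an unadjusted edgeR p under 0.05. The fit of 4 libraries called 5 of the 8 higher and 0 lower, with a median of 1.53. Over all genes this fit called 20.6% as higher and 19.4% as lower. The SoxE relatives of Sox9 were barely read, Sox8 with 1 to 3 reads per library and Sox10 with 0, and so were Thbs4, Matn4 and Cilp2, under 1 CPM in every library. Tcf15, a bHLH relative of Scx, had 0 reads. By contrast the thrombospondins Thbs1 and Thbs2, of the family of Comp, had 857 ± 904 and 842 ± 849 CPM and 2048 ± 583 and 3053 ± 2111 CPM in Ctl MSC and MSC-TPr (SD, n = 3 each).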

How the data were processed

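RNA-seq of 3 Ctl MSC and 3 MSC-TPr libraries was analysed, with groups and numbers taken from the sample labels. The authors aligned the reads to mm10 and deposited raw counts per gene from Htseq-count, and the processing notes name CASAVA 1.8.2, Trimmomatic 0.35 and TopHat2 2.1.0. Rows of reads not counted on a gene (13.8% to 20.8% of each library) were left out. Counts were tested in R 4.3.3 with edgeR 4.0.16 (TMM, filterByExpr, quasi-likelihood test, a term for group alone, Benjamini-Hochberg). The SE is the log2 fold change divided by the square root of F. DESeq2 1.42.0 was the alternative named in the methods of the study. Both were tested on simulated data.

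Gene models and lengths came from GENCODE M21 (GRCm38), and level ranks of the 6 tested genes were the same per exonic kilobase. Retired symbols (Lect1, Emr1, 3110079O15Rik) stood for Cnmd, Adgre1 and Snorc. The rule for named genes took the 10 genes and, from each wider list, those called, the 2 of highest mean CPM and the 2 with the largest log2 fold change in size. Sox5os1 and Bop1 were named after their overlap or position was seen. Myf5, Runx3, Gdf7, Sox8, Sox10, Thbs4, Matn4, Cilp2 and Tcf15 were named after their counts were seen. So were the genes at 0 reads and the osteoblast and adipocyte markers under 1 CPM. The 10 genes and the lists were chosen with earlier results of these data known.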

Additional observations from a re-analysis of the deposited data

How the results depend on the processing

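Acan, Comp, Cilp and Tnmd had 0 to 6 reads per library and were not tested. Of the 6 tested genes, Sox9, Sox5 and Scx turned sign in some of the fits. Sox6, Mkx and Matn2 kept theirs in every fit that gave a value. Of the 10 genes, edgeR called 0 over 6 libraries, while DESeq2 called 1 lower and the 4 libraries numbered 2 and 3 gave 3 higher and 2 lower. Over all genes, 3 were called higher and 48 lower, against 244 and 439 with DESeq2, 2498 and 2356 over the 4 libraries, and 29 lower with at least 10 counts in every library, a filter that left no value for Sox6. Leaving out each library in turn gave 0 to 11 higher and 0 to 105 lower, with 105 lower without Ctl MSC 1, 11 higher without MSC-TPr 1, and 0 in both directions without Ctl MSC 2, Ctl MSC 3 or MSC-TPr 3.

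Signs turned over the 4 libraries for Sox9 (0.34), Sox5 (1.71), Col11a2 (-1.57), Col2a1 (0.58), Col10a1 (0.18), Prelp (1.28) and Thbs1 (1.87), and for Col11a1 with unscaled library totals (-0.03). Leaving out each library gave log2 fold changes from -0.21 to 0.27 for Sox9, -0.89 to 1.34 for Sox5, -0.42 to 1.53 for Scx, -0.85 to 0.84 for Col11a1, -1.07 to 1.02 for Col11a2, -0.79 to 1.06 for Prelp, -0.29 to 3.48 for Fmod, -0.64 to 0.79 for Tgfb2, -0.08 to 1.02 for Col1a2 and -1.15 to 1.33 for Thbs1. The cause was not tested. Over all repeats of the gene values 304 kept direction and side of the threshold, 36 turned sign, 21 passed it anew with the same sign and 12 no longer passed. Of the 36, 3 also passed the threshold, Sox5, Col11a2 and Thbs1 over the 4 libraries.

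Deviations from the group means correlated at -0.774, -0.62 and -0.619 between libraries of the same number. Taken from means of 3 libraries, these values are not independent of each other. Ctl MSC 1 (-39.7) and MSC-TPr 1 (38.5) lay on opposite sides of the first principal component. The correlations thus cannot show whether the replicate numbers pair the libraries. With the replicate block edgeR called 0 genes higher and 0 lower (776 with an unadjusted p under 0.05), and the values that turned sign were Sox5 (0.40), Col11a1 (-0.05), Col11a2 (-0.25), Prelp (0.07), Tgfb2 (-0.09) and Thbs1 (0.18).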
